A study of Bos grunniens with 6 samples.

Results

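The miRNAs described here are miR-31, miR-22 and miR-218, 3 miRNAs known from the hair cycle, in cultured hair follicle cells of yak (Bos grunniens). They were taken by name from a table of 2853 small-RNA entries with cattle (bta) or predicted names. The table lists bta-miR-31, bta-miR-218 and both arms of the miR-22 hairpin, bta-miR-22-5p and bta-miR-22-3p, so 4 of its 2853 entries belong to them. Small RNA had been sequenced from wild-type dermal papilla cells, labelled as dermal cells, and from wild-type hair matrix cells, labelled as epidermal cells, with 3 libraries each. Both came from skin and were grown in DMEM/F12 with serum (FBS at 10%) and growth factors, EGF at 20 ng/mL and IGF1 at 10 ng/mL. The comparison asks which miRNAs differ in level between these cell types. The libraries are called biological replicates, but no animals or separate cultures are named, so p-values measure only the spread between these libraries, which may be technical.

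The dermal papilla is the cluster of mesenchymal cells at the base of the follicle that signals to the epithelium above it, and the hair matrix is the dividing epithelium that builds the shaft. A miRNA guides silencing complexes to messenger RNAs, mainly through its seed, the bases near its 5′ end that pair with the target. In mouse skin, miR-31 is known from the growth phase of the hair cycle and represses Fgf10, Dlx3 and keratin genes. miR-22 is known in mouse to drive hair follicles into regression and to repress Dlx3 and Foxn1, regulators of hair shaft formation. miR-218 is known in mouse to promote hair growth through the Wnt inhibitor Sfrp2, and in human it is made from introns of SLIT2 and SLIT3.

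The mature sequences are shown because the seed decides which targets each miRNA can pair with, and because reads are assigned by sequence. They are given 5′ to 3′ as the deposited table writes them (T for U), and capitals mark the seed, bases 2 to 8.
miR-31: aGGCAAGAtgctggcatagct
miR-218: tTGTGCTTgatctaaccatgtg
miR-22-5p: aGTTCTTCagtggcaagcttta
miR-22-3p: aAGCTGCCagttgaagaactg
The seeds are 4 different ones, so none of these miRNAs belongs to a shared seed family. No other entry in the table had the seed of miR-31, miR-218 or miR-22-3p. The seed of miR-22-5p occurred in 1 other entry, a predicted one that was under the filter on low values. No entry lay within 1 mismatch over at least 18 aligned bases of any of the 4, so none had a near-identical listed entry. This compares listed sequences only, and which reads the authors counted for each entry is not given in the sources used here.

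Levels are given in RPM, the number of reads of an entry divided by a total for its library and brought to a common total. Which reads this total counts is not given in the sources used here. It was inferred by taking the smallest value above 0 in each library as 1 read. The inferred library totals were 23904796 to 24693655 reads, 71.7% to 73.5% of them on listed entries, and 3 reads correspond to 0.121 to 0.125 RPM. An entry entered the limma test on log2(RPM + 1), a scale that understates the change of low entries, if 3 or more of the 6 libraries had 1 RPM or more. This left 503 entries, all 4 of the hair cycle entries among them. It was called where the Benjamini-Hochberg adjusted p over the 503 was under 0.05 and the change was 2-fold or more. A positive log2 change means a higher level in dermal papilla cells.

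Markers of each labelled cell type were high in its own libraries. All 6 epithelial marker entries (miR-200a, miR-200b, miR-200c, miR-141, miR-429 and miR-205) summed to 82.9 to 107.6 RPM in dermal papilla libraries and to 22064 to 22261 RPM in hair matrix libraries. The 7 mesenchymal entries (miR-143, miR-145, both arms of miR-199a, miR-199b, miR-214 and miR-127) summed to 91004 to 93998 RPM in dermal papilla libraries and to 1209 to 1427 RPM in hair matrix libraries. No marker of either list was at 0 in either cell type. Blood markers summed to 17.5 to 20.2 RPM in dermal papilla and 7.98 to 11.2 RPM in hair matrix libraries, with 1 of 5 tested and miR-142-3p at 0 in dermal papilla cells. The blood sum lay mostly in the tested entry, miR-451, with means of 17.5 and 8.77 RPM in dermal papilla and hair matrix cells. Endothelial miR-126 entries summed to 3.68 to 4.70 RPM in dermal papilla and 2.57 to 4.01 RPM in hair matrix libraries. Muscle entries summed to 57.7 to 72.4 and 24.6 to 26.3 RPM in dermal papilla and hair matrix libraries, with 1 of 3 tested. That entry, miR-1, had means of 66.0 and 25.4 RPM and was called higher in dermal papilla cells. Of the untested muscle entries, miR-133a was higher and miR-206 lower in dermal papilla cells, both at means under 1 RPM.

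The 3 miRNAs did not move together. miR-31 was lower and miR-218 higher in dermal papilla cells, and both arms of miR-22 stayed under 2-fold. Of the 4 entries, 2 were called, against 45.1% of the 503 tested. Of these, 1 was called higher in dermal papilla cells, against 25.2% of tested entries, and 1 was called higher in hair matrix cells, against 19.9%. Over all entries, 127 were called toward dermal papilla cells and 100 toward hair matrix cells, which became 109 and 137 after median centring. All 4 had an adjusted p under 0.05, as had 82.7% of tested entries, and in all 4 no dermal papilla library fell within the range of the hair matrix libraries, as in 84.1% of tested entries. The log2 changes were 0.25 and 0.49 for the miR-22 arms, -2.62 for miR-31 and 5.16 for miR-218. The median absolute log2 change was 1.56 over the 4 and 0.89 over all tested. Both miR-22 arms lay below 0.89, and miR-31 and miR-218 lay above it in size. The median over the 4 thus describes none of them.

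**Figure D1:**
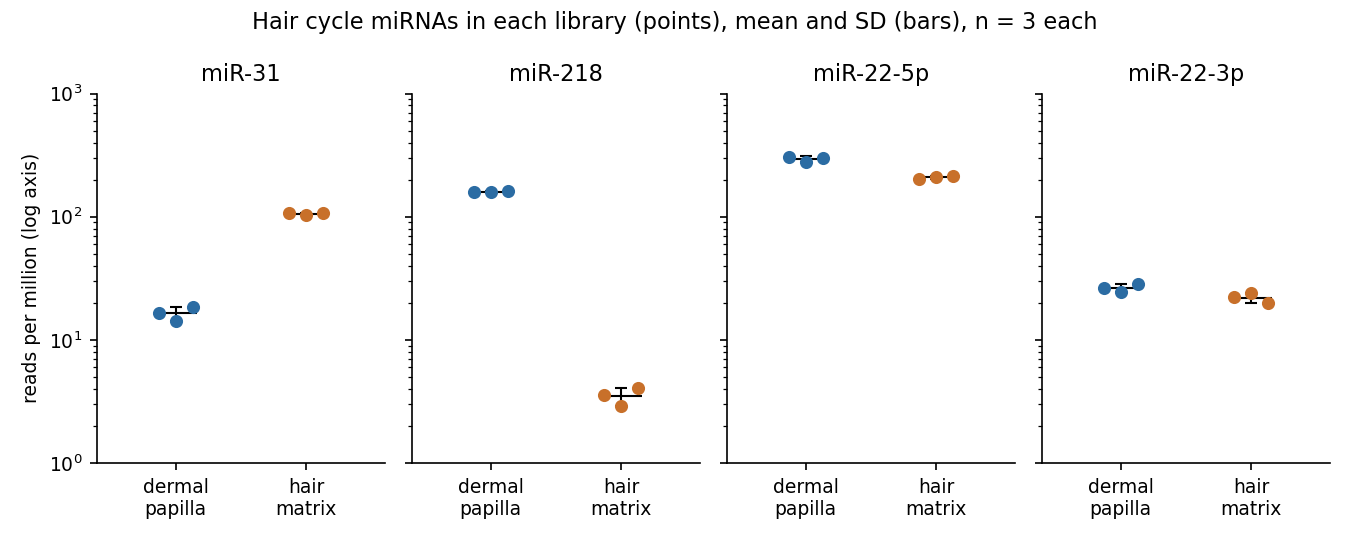
Level of each miRNA in RPM on a log axis, by cell type, with 1 point per library and bars for the mean and SD (n = 3 each). miR-31 lies below 20 RPM in dermal papilla and above 100 RPM in hair matrix libraries, miR-218 shows the opposite order, and each miR-22 arm differs by less than 2-fold between the cell types.

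miR-31 had 16.4, 14.3 and 18.6 RPM in the dermal papilla libraries, against 106.3, 104.1 and 106.8 RPM in the hair matrix libraries. Every dermal papilla library was far below every hair matrix library, and the hair matrix libraries were nearly level with each other. The mean was 16.4 ± 2.16 RPM in dermal papilla cells, against 105.7 ± 1.43 RPM in hair matrix cells (SD, n = 3 each), which is 6.44-fold higher in hair matrix cells. The log2 change was -2.62 ± 0.096 (SE), with a limma adjusted p of 1.65e-07, and it ranked 94 of 503 by size. Behind these values lie 342 to 451 reads per dermal papilla library and 2549 to 2624 per hair matrix library. The coefficient of variation was 13.1% in dermal papilla cells, against 1.35% in hair matrix cells, where counting error alone gives 5.03% and 1.97%.

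miR-31 was not near absence in dermal papilla cells. Its dermal papilla level was 15.5% of its hair matrix level, whereas the epithelial markers reached 0.235% to 2.88% of theirs, with miR-205, a miRNA of stratified epithelia, the highest of them. By library, the epithelial markers summed to 107.6, 82.9 and 104.8 RPM in dermal papilla replicates 1, 2 and 3. miR-31 was lowest in replicate 2 but highest in replicate 3, so the orders differed at the top. The marker sums of replicates 1 and 3 are close. Exact Poisson 95% intervals of miR-31, for counting error only, overlap between them, at 14.8 to 18.1 and 16.9 to 20.4 RPM. These orders therefore show neither a relation nor the lack of one. The part of epithelial RNA in the dermal papilla value was not tested. In cultures measured whole, fewer cells with a miRNA and less of it per cell cannot be told apart.

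miR-218 had 158.5, 157.9 and 161.8 RPM in the dermal papilla libraries, against 3.56, 2.90 and 4.08 RPM in the hair matrix libraries. The dermal papilla libraries agreed closely, and all hair matrix libraries were low but well above 3 reads. The mean was 159.4 ± 2.08 RPM in dermal papilla cells, against 3.52 ± 0.593 RPM in hair matrix cells (SD, n = 3 each), a 45.3-fold difference. On the log2(RPM + 1) scale the change was 5.16 ± 0.10 (SE), with a limma adjusted p of 5.54e-09, and it ranked 41 of 503 by size. The dermal papilla values rest on 3779 to 3922 reads per library and the hair matrix values on 71 to 98. In hair matrix replicate 2, the lowest, the exact Poisson 95% interval was 2.26 to 3.66 RPM, and in replicate 3, the highest, it was 3.31 to 4.97 RPM. These intervals cover counting error only, and they overlap.

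The hair matrix level of miR-218 was 2.21% of its dermal papilla level. The mesenchymal markers had 0.206% to 1.76% of their dermal papilla level in hair matrix cells, with miR-127, from an imprinted miRNA cluster, the lowest and miR-199a-5p, a miRNA of mesenchymal tissues, the highest. These markers summed to 1217, 1209 and 1427 RPM in hair matrix replicates 1, 2 and 3. Replicate 3 had both the highest marker sum and the highest miR-218, and replicate 2 the lowest of both. The sums of replicates 1 and 2 are close, and the Poisson intervals of miR-218 in replicates 2 and 3 overlap. These orders therefore do not show a relation. Their part in the hair matrix value of miR-218 was not tested.

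**Figure D2:**
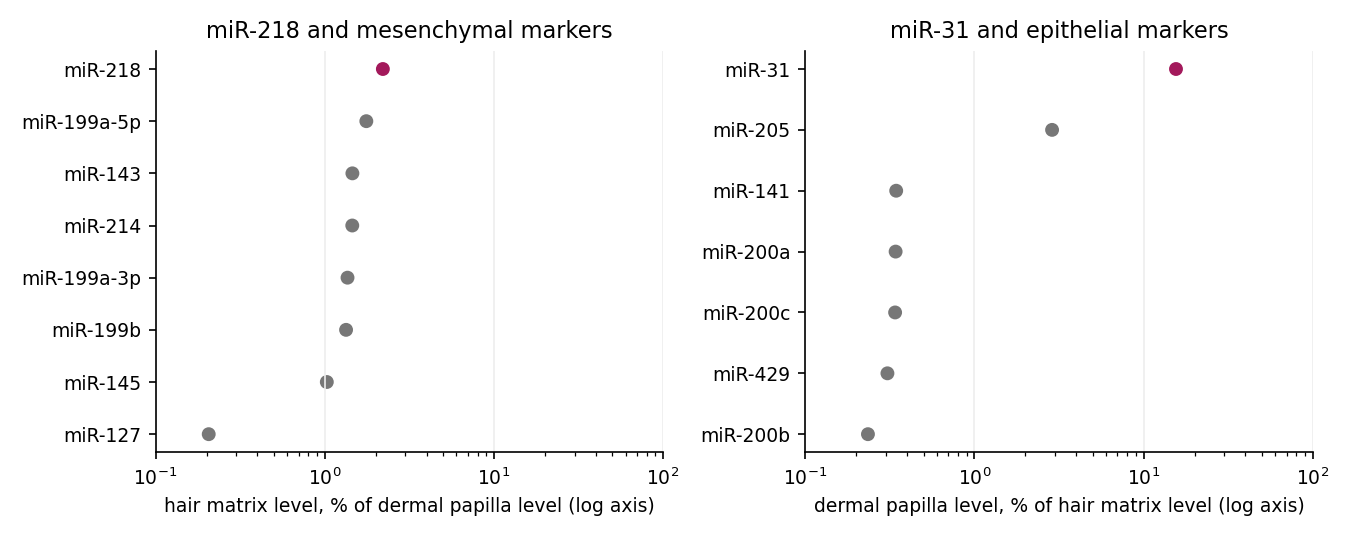
Level in the cell type with the lower value as a percentage of the level in the other cell type, from group means on a log axis, for miR-218 with mesenchymal markers (left) and miR-31 with epithelial markers (right). miR-218 at 2.21% lies above all 7 mesenchymal markers, the highest of which is at 1.76%, and miR-31 at 15.5% lies above all 6 epithelial markers, the highest of which is at 2.88%.

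Within a library, the ratio of miR-218 to miR-31 does not depend on how the library is scaled. It was 9.67, 11.05 and 8.70 in the dermal papilla libraries, against 0.0335, 0.0279 and 0.0382 in the hair matrix libraries. In each dermal papilla library miR-218 was therefore the more abundant, and in each hair matrix library miR-31 was. The mean log2 ratio was 3.29 ± 0.17 in dermal papilla cells, against -4.92 ± 0.23 in hair matrix cells (SD, n = 3 each), a difference of 8.21 or 296-fold.

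miR-22-5p was the most abundant of the 4 in both cell types. In mammals the 3p arm of miR-22 is usually the abundant one, so the arm order in this table runs against the usual one. How the authors assigned reads to the arms is not given in the sources used here, and its part in the levels of both arms was not tested. It had 305.2, 278.2 and 301.5 RPM in the dermal papilla libraries, against 203.8, 209.5 and 213.7 RPM in the hair matrix libraries. All dermal papilla libraries were above all hair matrix libraries, but by less than 2-fold. The mean was 295.0 ± 14.6 RPM in dermal papilla cells, against 209.0 ± 4.98 RPM in hair matrix cells (SD, n = 3 each), a ratio of 1.41. The log2 change of 0.49 ± 0.055 (SE) had a limma adjusted p of 9.23e-05 and was not called because of its size. It was 0.29 when RPM were rescaled without the 5 most abundant entries and 0.22 after median centring (adjusted p of 0.0021 and 0.00934). Relative to the median of all tested entries it was 0.51 as reported and 0.47 without the 5 most abundant entries. Median centring shifts all entries alike, so it leaves this relative value unchanged by construction. Of the tested entries, 37.6% likewise passed the adjusted p but not the fold minimum. In dermal papilla cells the sample spread of miR-22-5p, a coefficient of variation of 4.97%, was above the counting error of 1.19%.

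miR-22-3p, the arm on which the known work in mouse rests, was listed at much lower levels. It had 26.4, 24.4 and 28.5 RPM in the dermal papilla libraries, against 22.4, 23.9 and 19.9 RPM in the hair matrix libraries. The groups came close to overlapping, with dermal papilla replicate 2 just above hair matrix replicate 2. The mean was 26.4 ± 2.01 RPM in dermal papilla cells, against 22.0 ± 1.99 RPM in hair matrix cells (SD, n = 3 each), with the hair matrix level at 83.3% of the dermal papilla level and a log2 change of 0.25 ± 0.093 (SE) with a limma adjusted p of 0.0373. It was not called. Its direction depended on the scaling, with a log2 change of 0.06 when RPM were rescaled without the 5 most abundant entries and -0.020 after median centring (adjusted p of 0.574 and 0.849). These scalings moved the median log2 change of all tested entries by -0.17 and -0.27. Relative to that median the change of miR-22-3p was 0.27 as reported and 0.24 without the 5 most abundant entries. After median centring this relative value is the same by construction, so it is no check of the scaling. Leaving out dermal papilla replicate 1 or 3 gave an adjusted p of 0.083 or 0.106, and leaving out hair matrix replicate 1 or 3 gave 0.0698 or 0.111.

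**Figure D3:**
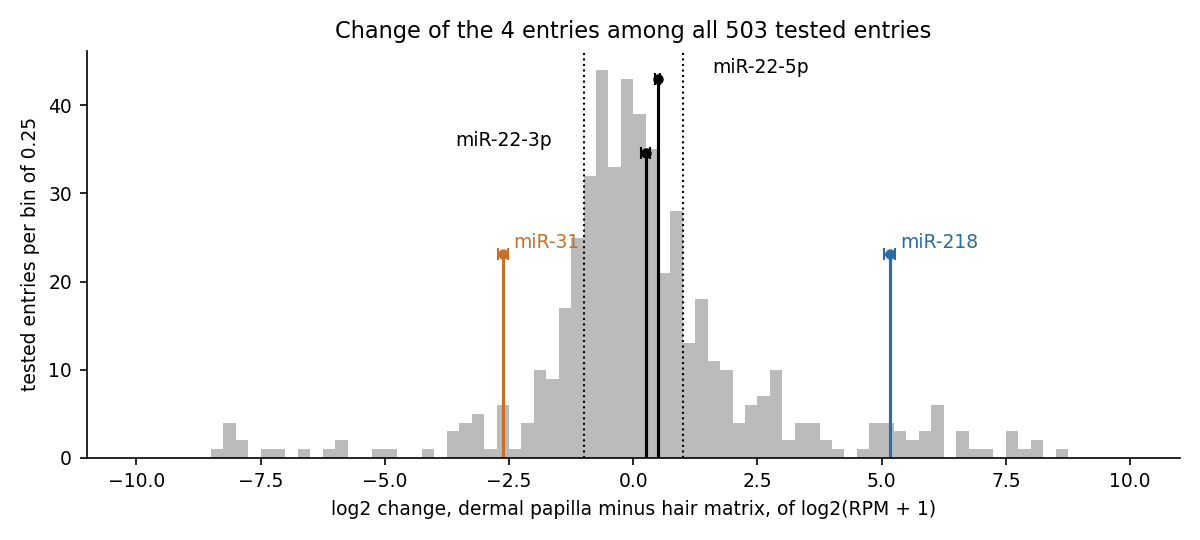
Histogram of the log2 change (dermal papilla minus hair matrix, of log2(RPM + 1)) over all 503 tested entries in bins of 0.25, with the 4 hair cycle entries as vertical lines with points and SE bars, and dotted lines at 2-fold. miR-31 at -2.62 and miR-218 at 5.16 lie outside the dotted lines, and both miR-22 arms lie between them.

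The arms of miR-22 were set against each other within each library, since both are cut from 1 hairpin. Reads of miR-22-5p outnumbered those of miR-22-3p by 11.5, 11.4 and 10.6 times in the dermal papilla libraries, against 9.12, 8.78 and 10.7 times in the hair matrix libraries. Dermal papilla replicate 3 lay just below hair matrix replicate 3, so the groups overlapped. In all 6 libraries the 5p arm was thus the higher one, the reverse of the usual order, under an assignment rule that is not known. miR-22-3p made up 7.97%, 8.08% and 8.63% of miR-22 reads in dermal papilla libraries, against 9.89%, 10.2% and 8.52% in hair matrix libraries. Exact binomial 95% intervals ran from 7.38% to 9.26% over the dermal papilla libraries and from 7.81% to 11.0% over the hair matrix libraries, covering counting error only.

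On the log2(RPM + 1) scale the ratio of miR-22-3p to miR-22-5p averaged -3.43 ± 0.064 in dermal papilla cells, against -3.19 ± 0.15 in hair matrix cells (SD, n = 3 each). The difference of -0.24 had a two-sided exact permutation p of 0.1, the smallest that 3 against 3 allows, and 0.2 with a pseudocount of 0.5. With RPM + 1, dermal papilla replicate 3 at -3.3602 lay barely below hair matrix replicate 3 at -3.3599. The read ratios of the groups overlapped, so reaching the smallest p depends on the pseudocount. A test of this size cannot reach 0.05, so it does not show whether arm use differed. Among 32 hairpins with both arms tested and named as arms, the 5p arm was higher in both cell types in 17 and the 3p arm in 12. The absolute difference of the log2 arm ratio between cell types had a median of 0.44 over the 32, and 7 hairpins had a smaller one than miR-22.

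**Figure D4:**
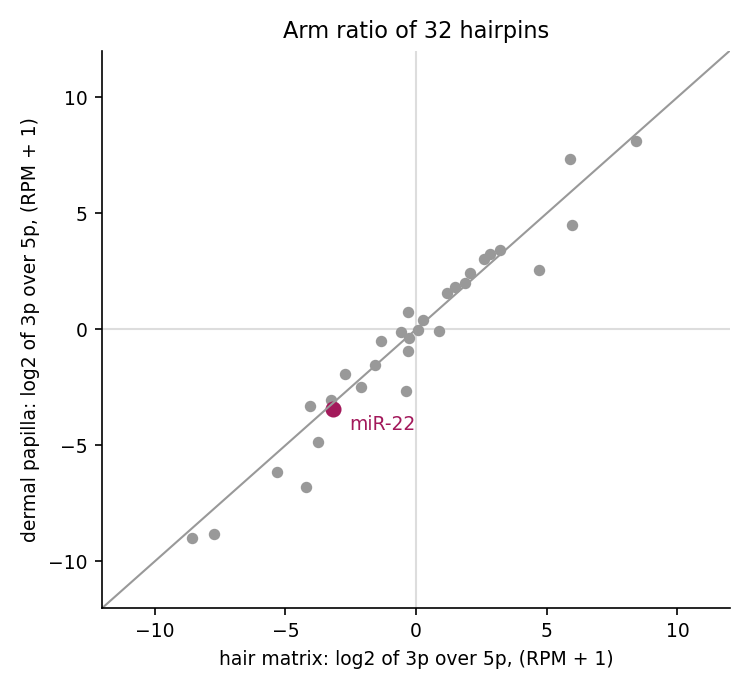
Log2 ratio of the 3p to the 5p arm, computed on RPM + 1 and averaged over 3 libraries, in dermal papilla cells (vertical) against hair matrix cells (horizontal), for 32 hairpins as points, with the line of equality. miR-22, at -3.43 in dermal papilla and -3.19 in hair matrix cells, lies next to the line, on the side where the 5p arm is higher in both cell types, which is not the usual order of the miR-22 arms in mammals.

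The order of levels differed between the cell types. In dermal papilla cells it was miR-22-5p, miR-218, miR-22-3p and miR-31, at ranks 90, 108, 183 and 202 among all entries by mean RPM. In hair matrix cells it was miR-22-5p, miR-31, miR-22-3p and miR-218, at ranks 86, 111, 171 and 291. Within each cell type, neighbours in the order had libraries that did not overlap, and their means differed by 1.61 to 6.27 times. The mature sequences are 21 or 22 bases long, and the order was the same per base of sequence.

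Together the 4 entries took up 497 ± 19.5 RPM in dermal papilla cells, against 340 ± 4.26 RPM in hair matrix cells (SD, n = 3 each). As a share of listed reads this was 0.0685% ± 0.0033 in dermal papilla cells, against 0.0469% ± 0.0011 in hair matrix cells. miR-22-5p held 59.3% ± 0.853 of this sum in dermal papilla cells, against 61.4% ± 0.699 in hair matrix cells. miR-218 held 32.1% ± 1.03 of it in dermal papilla cells, against 1.03% ± 0.168 in hair matrix cells, and miR-31 held 3.30% ± 0.322 in dermal papilla cells, against 31.1% ± 0.526 in hair matrix cells. The share of miR-218 in dermal papilla cells lay within about 1 percentage point of that of miR-31 in hair matrix cells.

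The entries with the most similar patterns were found by the Euclidean distance between log2(RPM + 1) values over the 6 libraries, each centred on its own mean, among cattle-named tested entries (412 for miR-31 and miR-218 and 411 for the miR-22 arms). For miR-31 they were miR-140, miR-10225b and miR-146a, at distances of 0.29, 0.30 and 0.34. miR-140, known from cartilage, had 131.0 ± 9.83 RPM in dermal papilla cells, against 823 ± 34.7 RPM in hair matrix cells, and miR-146a, known from inflammatory responses, had 108 ± 2.32 and 665 ± 77.1 RPM in dermal papilla and hair matrix cells (SD, n = 3 each). miR-10225b was far lower, at 0.0139 ± 0.024 RPM in dermal papilla cells, against 5.46 ± 0.375 RPM in hair matrix cells. Its dermal papilla level is below 3 reads per library, so its closeness to miR-31 holds on the log2(RPM + 1) scale and not in RPM.

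For miR-218 they were miR-323, miR-409b and miR-154b, at distances of 0.23, 0.30 and 0.33. Their dermal papilla means were 42.2 ± 1.69, 40.8 ± 2.55 and 35.1 ± 3.05 RPM (SD, n = 3). Their hair matrix means were 0.150 ± 0.062, 0.0959 ± 0.025 and 0.0680 ± 0.046 RPM (SD, n = 3), near or below 3 reads per library, so in RPM they differ from miR-218 more than the distance on the log2(RPM + 1) scale shows. For miR-22-5p they were miR-181b, miR-25 and miR-30d, at distances of 0.12, 0.14 and 0.16 and log2 changes of 0.55, 0.56 and 0.45. For miR-22-3p they were miR-125a, miR-423-5p and miR-423-3p, at distances of 0.21, 0.22 and 0.22 and log2 changes of 0.14, 0.17 and 0.32.

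Other miRNAs known from skin and hair follicles were taken as a list of 14 names (miR-203, miR-205, miR-125b, miR-214, miR-24, miR-21, miR-200a, miR-200b, miR-196a, miR-148a, miR-195, miR-29a, miR-99a and miR-34a), of which 13 had entries and miR-203 was not analysed here. Of 16 entries, 15 were tested, 4 were called higher in dermal papilla cells, 4 were called higher in hair matrix cells and 7 were not called. Over all tested entries 25.2% were called toward dermal papilla cells and 19.9% toward hair matrix cells, so the counts of the list lie near the background. The median log2 change was -0.43, against -0.01 over all tested entries. The largest changes toward dermal papilla cells were those of miR-214, known to act on Wnt signalling in skin, and miR-148a, with log2 changes of 5.95 and 3.19. The largest toward hair matrix cells were those of miR-200b and miR-200a, which repress the ZEB factors, with log2 changes of -8.28 and -8.14. miR-200a, miR-200b, miR-205 and miR-214 also stand among the cell type markers above.

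**Figure D5:**
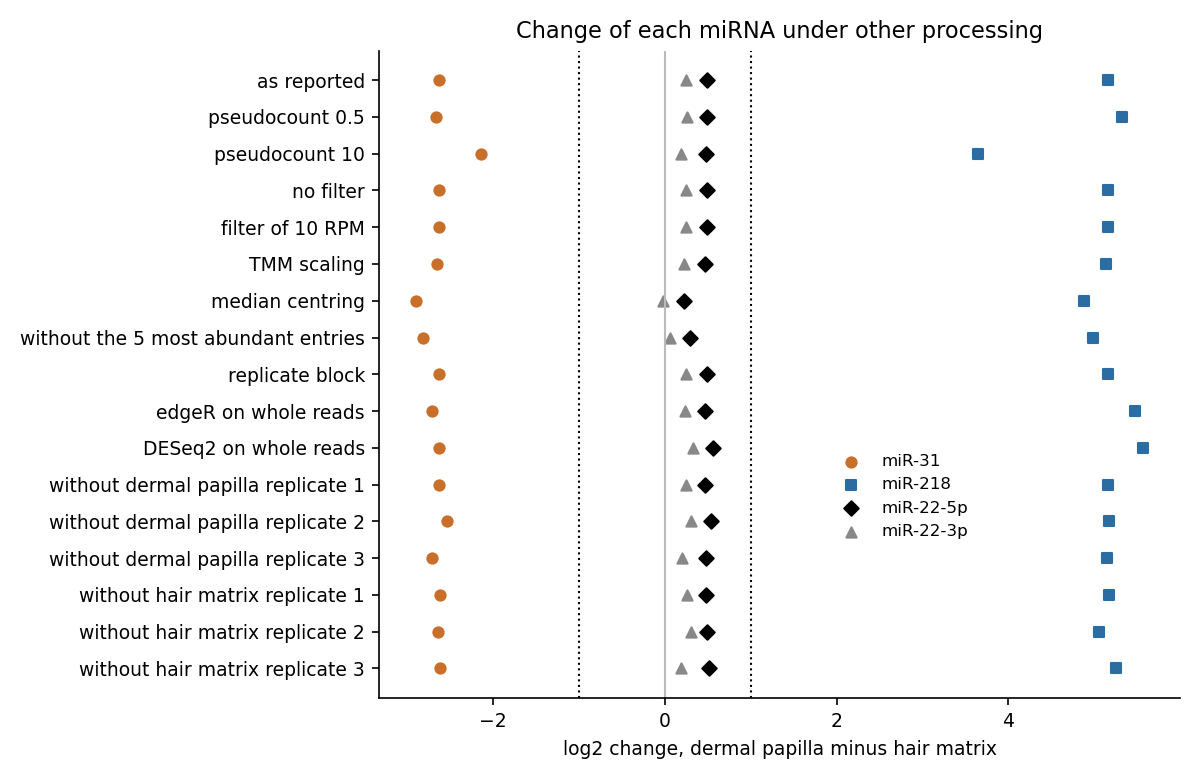
Log2 change (dermal papilla minus hair matrix) of the 4 hair cycle entries as reported and under 16 other settings, with dotted lines at 2-fold. miR-31 stays between -2.90 and -2.13 and miR-218 between 3.65 and 5.57, and miR-22-3p reaches -0.020 after median centring.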

How the data were processed

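Per the labels' protocols, total RNA was extracted with Trizol and 1 µg per sample went into TruSeq small RNA libraries. Trimmomatic, DESeq 1.20.0 and HISAT2 2.2.1.0 are listed, with no roles, per the submitters' processing notes. Which genome build, miRNA reference and counting rule the authors used is not given in the sources used here. Under the name TPM, the authors deposited values that behave as RPM, because 100% of them equal a whole number of reads, within 0.001 read, times a step that is fixed in each library. Whole reads were recovered from these steps. The deposited Length column, an other measure, is the sequence length in bases. The design expected TPM, and the limma test was kept.

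limma 3.58.1 (R 4.3.3) was fitted to log2(RPM + 1) of 503 entries with cell type as the only term and a mean trend. Alternatives used edgeR 4.0.16 and DESeq2 1.42.0 on recovered counts, which the authors deposited only as RPM. On simulated data for this comparison with 503 entries, 28% of 2-fold, 96% of 4-fold and 100% of 16-fold changes were called, and 0% of unchanged entries. A call needs a 2-fold change, so 2-fold changes lie at its limit and unchanged entries seldom reach it. By an adjusted p under 0.05 alone, 48% of 1.5-fold changes passed in the right direction, and 1.65% of unchanged entries passed. The simulation held no shift in composition between the cell types, so it does not bear on the choice of scaling. Pairs of replicates had a chi-square per degree of freedom of 44.2 to 118.8 on whole reads, so none agreed within sampling noise, and all 6 libraries were counted.

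The miRNAs described, the lists and the rule for named entries (the 3 most similar entries per miRNA, and the 2 largest changes of the hair follicle list in each direction) were chosen with earlier results of these data known. The study's mRNA data were not analysed here.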

Additional observations from a re-analysis of the deposited data

How the results depend on the processing

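The call of miR-31 toward hair matrix cells and that of miR-218 toward dermal papilla cells were kept under each of the 16 alternatives (pseudocounts of 0.5 and 10, no filter, TMM scaling, a filter of 10 RPM, rescaling without the 5 most abundant entries, median centring, the replicate block, edgeR, DESeq2, and leaving out each library), and neither miR-22 arm was called under any. Only miR-22-3p turned its direction, to -0.020 after median centring, which shifts all entries alike. Its adjusted p ran from 0.0133 to 0.849 and was under 0.05 in 6 of the 16, against 16 of 16 for miR-22-5p. With a pseudocount of 10 the calls over all entries were 77 and 40, higher in dermal papilla and in hair matrix cells, and with a filter of 10 RPM, where fewer entries are tested, they were 80 and 47. edgeR called 143 and 141 and DESeq2 151 and 135. The hair follicle list had 5 in place of 4 calls toward hair matrix cells after median centring and in edgeR and DESeq2. Leaving out a library gave log2 changes of -2.71 to -2.53 for miR-31, 5.06 to 5.25 for miR-218, 0.47 to 0.54 for miR-22-5p and 0.19 to 0.31 for miR-22-3p, and an arm ratio difference of -0.32 to -0.19. Correlations of deviations from the group means were 0.14, 0.08 and -0.27 for the same replicate numbers and -0.43 to 0.39 for different ones. With 3 libraries per cell type they cannot decide whether replicate numbers pair the libraries. With the replicate block 127 and 101 entries were called, with a limma adjusted p of 0.0775 for miR-22-3p. Depth limits miR-218 in hair matrix cells most, at 71 to 98 reads per library.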
